A study of Mus musculus with 2 samples.

Results

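Transforming growth factor beta (TGF-beta) signalling was examined in RNA from isolated glomeruli, the filtering units of the kidney, through 10 genes: the ligands Tgfb1, Tgfb2 and Tgfb3, the latent binding protein Ltbp1, the receptors Tgfbr1, Tgfbr2 and Tgfbr3, the signal transducers Smad3 and Smad7, and Ctgf. Members were every probe set (a group of short probes for 1 transcript) whose platform symbol was exactly one of these names, which gave 23 probe sets of 9 genes. Ctgf had no probe set under that name. The platform table lists the same gene as Ccn2, of which RefSeq gives Ctgf as a synonym, and its 1 probe set was added, so that 24 of 34945 probe sets with 1 gene symbol are described. The high-fat diet group (HFD, 1 array) and the normal chow group (Chow, 1 array) both held glomeruli of male KK/Ta mice, an inbred strain that becomes obese and diabetic, at 20 weeks of age, and no allele or agent other than diet is named. The design text speaks of 3 mice, and whether RNA was pooled onto an array is not stated in the sources used. With 1 array per diet no test between the diets was possible and every difference describes these RNA preparations only.

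TGF-beta is secreted in a latent form, held in the matrix by latent binding proteins and released by proteases and integrins. The active ligand joins a type II and a type I receptor kinase, which phosphorylate Smad2 and Smad3, and these enter the nucleus with Smad4, while Smad7 is induced by the pathway and restrains it. In the glomerulus the pathway is known for driving matrix production by mesangial cells and for its part in diabetic kidney disease.

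Glomerular RNA of HFD-fed mice gave higher Tgfb2 and Tgfb1 signals and a lower Ltbp1 signal than RNA of Chow-fed mice, and receptor and Smad3 signals that differed by 0.28 log2 units or less. In RNA of whole glomeruli fewer cells of a type and less RNA per cell cannot be told apart. Tgfb2 was 1.46-fold to 1.67-fold higher in its 3 measurable probe sets, Tgfb1 was 1.32-fold higher, Ltbp1 was 1.31-fold lower, and Smad7 was 1.39-fold higher in 1 of 2 probe sets. All 10 genes had a probe set above the floor, the median signal of each array (42.3 for HFD and 44.9 for Chow), under which a signal was treated as not measured. Of 24 probe sets, 14 were above the floor on both arrays, 1 in Chow only and 9 on neither. Differences are log2 HFD minus Chow after each array was centred on its median, which added 0.083 to every difference.

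**Figure D1:**
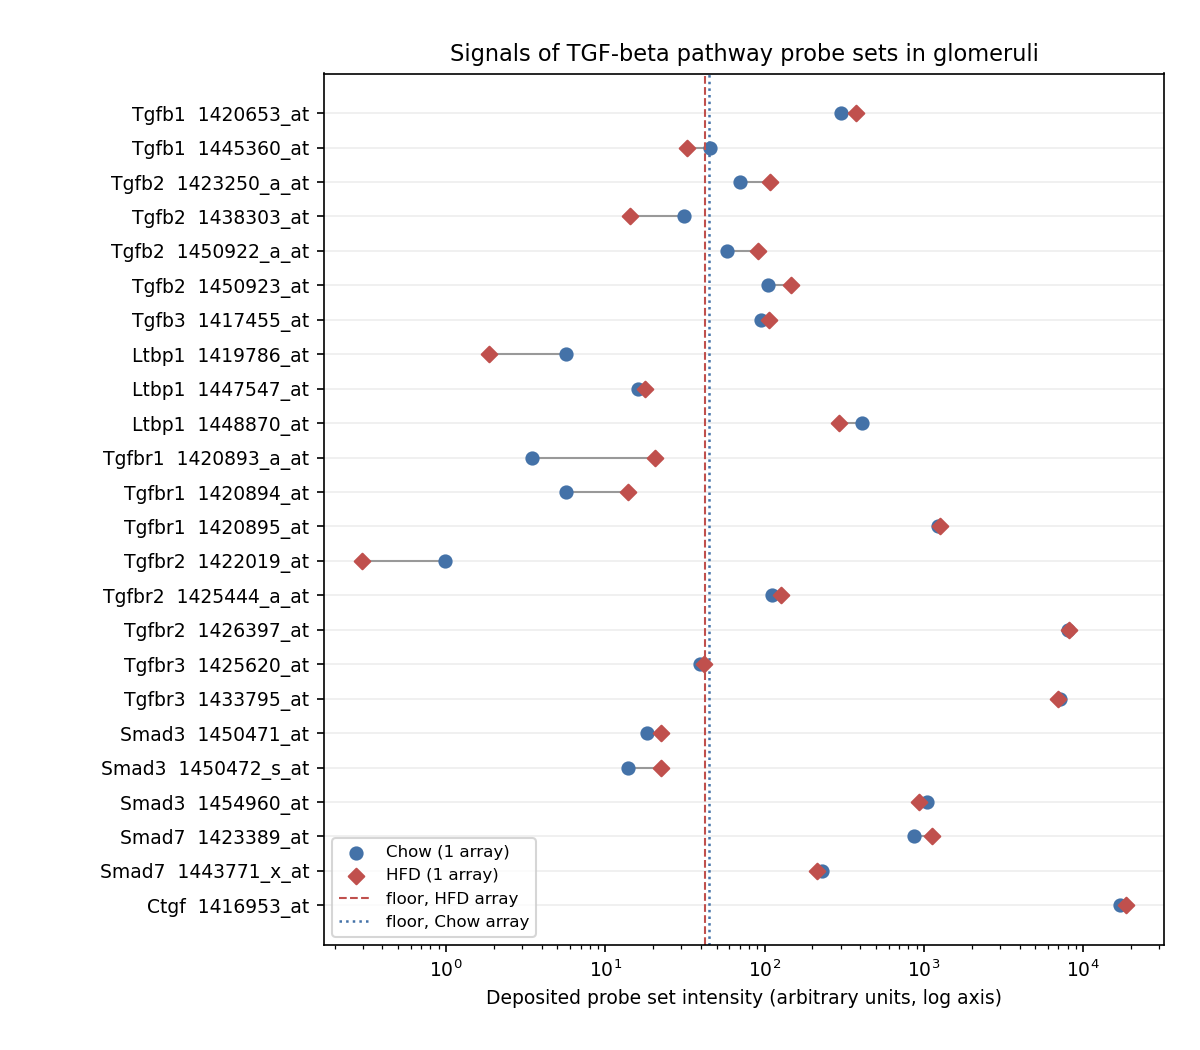
Deposited intensity (log axis) of each of the 24 probe sets on the Chow array (circles) and the HFD array (diamonds), with the floor of each array as a vertical line. The 3 Tgfb2 probe sets above the floor were higher in HFD, and for Tgfbr1, Tgfbr2, Tgfbr3, Smad3 and Ltbp1 at least 1 probe set lay under the floor on both arrays.

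The promoter sequences of the members with the largest difference in each direction, Tgfb2 and Ltbp1, are shown together with that of Tgfb1 for comparison of the ligands. Each is the 250 bases before a RefSeq gene start, from RefSeq on GRCm38.p6, written 5′ to 3′ along the gene. RefSeq sequences were matched for 6 of the 10 genes. Capitals mark exact matches on either strand to the Smad box CAGAC, the GC box GGGCGG, the cyclic AMP response element TGACGTCA, the AP-1 site TGACTCA and the TATA box TATAAA.
Tgfb2, chr1:186705990-186706239, minus strand: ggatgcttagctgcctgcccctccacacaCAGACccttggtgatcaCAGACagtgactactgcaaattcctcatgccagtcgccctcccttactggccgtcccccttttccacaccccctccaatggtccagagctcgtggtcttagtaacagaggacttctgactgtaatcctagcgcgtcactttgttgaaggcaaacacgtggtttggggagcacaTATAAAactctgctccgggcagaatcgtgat
Tgfb1, chr7:25686752-25687001, plus strand: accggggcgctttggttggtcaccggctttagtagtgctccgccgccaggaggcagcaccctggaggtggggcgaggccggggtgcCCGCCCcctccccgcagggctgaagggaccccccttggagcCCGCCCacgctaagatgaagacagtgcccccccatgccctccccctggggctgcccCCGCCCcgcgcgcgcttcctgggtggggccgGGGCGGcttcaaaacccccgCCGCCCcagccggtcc
Ltbp1 first start, chr17:75005279-75005528, plus strand: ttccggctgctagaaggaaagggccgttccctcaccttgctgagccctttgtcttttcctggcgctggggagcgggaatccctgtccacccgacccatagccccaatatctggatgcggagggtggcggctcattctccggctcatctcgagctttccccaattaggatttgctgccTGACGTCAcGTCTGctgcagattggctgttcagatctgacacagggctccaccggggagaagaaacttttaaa
Ltbp1 second start, chr17:75178531-75178780, plus strand: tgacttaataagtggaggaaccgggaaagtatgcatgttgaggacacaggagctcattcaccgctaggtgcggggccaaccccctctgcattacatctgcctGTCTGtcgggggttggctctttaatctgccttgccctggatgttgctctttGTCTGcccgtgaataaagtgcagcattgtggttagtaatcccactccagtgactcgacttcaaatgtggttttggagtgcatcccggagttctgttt
The promoters differed in these letters. That of Tgfb2 held a TATA box 31 to 26 bases before the start and 2 Smad boxes, and 53.6% of its bases were G or C. That of Tgfb1 held 5 GC boxes and none of the other motifs, at 75.2% G or C. The first Ltbp1 start had a cyclic AMP response element and 1 Smad box, which did not overlap, and the second had 2 Smad boxes. Of 32851 RefSeq promoter windows of 250 bases, 42.2% held a Smad box, 32.7% a GC box, 12.4% the TATA box, 4.46% the AP-1 site and 1.55% the cyclic AMP response element. A match describes the letters only, and nothing on these arrays measured binding there.

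Among the ligands, Tgfb2 had the largest differences of all members. Probe set 1450922_a_at had a signal of 91.2 in HFD and 57.8 in Chow, a difference of 0.74 (1.67-fold higher). Probe set 1423250_a_at read 108 in HFD and 69.7 in Chow, a difference of 0.72 (1.64-fold). Probe set 1450923_at read 146 and 106, a difference of 0.55 (1.46-fold). These 3 probe sets were therefore higher in HFD in the same sense, but they were designed from 1 source sequence and are not independent of each other. The remaining one, 1438303_at, was under the floor on both arrays, at 14.3 in HFD and 31.2 in Chow, and gives no fold. All measured Tgfb2 signals lay in the 3 dimmest of 10 equal signal bins, where the scatter between the arrays was widest.

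Of the 15 member probe sets above the floor on at least 1 array, 2 passed 1.5-fold upward in HFD (13.3%), both of Tgfb2. Among all 20317 probe sets above the floor the share was 3.78%, and in the 3 dimmest bins, to which the Tgfb2 probe sets belong, it was 6.36%. None of the members was at least 1.5-fold lower (1.97% of all probe sets), and none differed by 2-fold (0.6% of all were higher and 0.192% lower by that much). A count of 2, from 1 gene, is too small to be set apart from these shares.

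Tgfb1, the ligand best known from fibrosis and stored in platelets and immune cells, read 377 in HFD and 303 in Chow in probe set 1420653_at, a difference of 0.40 (1.32-fold higher). Its other probe set, 1445360_at, read 32.6 in HFD and 45.3 in Chow, so it lay under the floor in HFD and just above it in Chow, and gives only a bound, set by the floor (-0.013, and -0.39 with no floor). Macrophage and platelet markers, of cells that hold Tgfb1 transcript or protein, were higher on the HFD array as well, with medians of 1.56 over the 8 macrophage and 0.46 over the 3 platelet markers above the floor on both arrays, and their part in the Tgfb1 value was not tested. Tgfb3, the ligand of palate and lung development, read 107 in HFD and 94.97 in Chow, a difference of 0.25 (1.19-fold higher). Each ligand thus had a higher signal in HFD in its brightest probe set, by amounts from 0.25 to 0.55. The Tgfb3 difference was smaller than the scatter between the arrays at like signal (0.36).

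Ltbp1, which tethers latent TGF-beta to the matrix, was the member with the largest negative difference. Probe set 1448870_at read 294 in HFD and 407 in Chow, a difference of -0.39 (1.31-fold lower). Its other probe sets were under the floor on both arrays, with 17.8 and 16.1 for 1447547_at and 1.86 and 5.69 for 1419786_at, in HFD and Chow. The Ltbp1 value therefore rests on 1 probe set.

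The receptors had close signals on both arrays. Tgfbr2, the type II receptor kinase that binds the ligand, read 8127 in HFD and 7998 in Chow in probe set 1426397_at, a difference of 0.11. A dimmer Tgfbr2 probe set, 1425444_a_at, read 128 and 111, a difference of 0.28, and the third, 1422019_at, was under the floor at 0.298 and 0.982. Betaglycan, the co-receptor encoded by Tgfbr3 that presents TGF-beta 2 to the type II receptor, read 6936 in HFD and 7187 in Chow, a difference of 0.032 after centring. Its second probe set read 41.5 and 39.1, under the floor on both. The type I receptor gene Tgfbr1 read 1260 in HFD and 1233 in Chow, a difference of 0.11. Of Tgfbr1 the other 2 probe sets, 1420893_a_at (20.4 in HFD and 3.49 in Chow) and 1420894_at (13.8 and 5.64), were under the floor on both arrays, although all 3 come from 1 source sequence.

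Smad3, the receptor-activated Smad, read 938 in HFD and 1044 in Chow in probe set 1454960_at, a difference of -0.070, and its other 2 probe sets were under the floor at 14.0 to 22.4. Smad7, the inhibitory Smad that is itself a target of the pathway, read 1128 in HFD and 863 in Chow in probe set 1423389_at, a difference of 0.47 (1.39-fold higher). Its second probe set, 1443771_x_at, whose name marks probes that may match other transcripts, read 215 in HFD and 228 in Chow, a difference of -0.0043. The pair of Smad7 probe sets thus disagreed, with a higher signal only in the one without shared probes. Ctgf, a secreted matricellular protein and a classical TGF-beta target that podocytes and mesangial cells make, read 18522 in HFD and 16956 in Chow, a difference of 0.21 (1.16-fold higher).

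**Figure D2:**
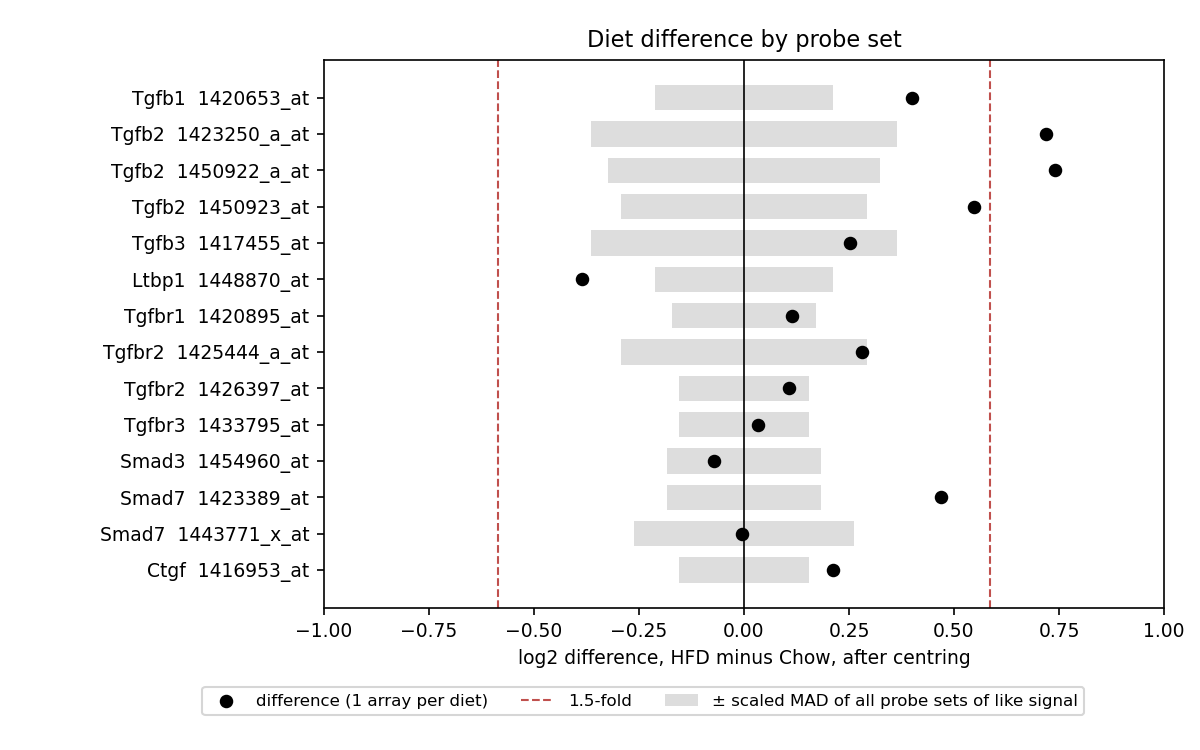
Log2 difference, HFD minus Chow, of the 14 probe sets above the floor on both arrays (points), with grey bars showing the scaled median absolute deviation of all probe sets of like signal on either side of 0 and dashed lines at 1.5-fold. Tgfb1, the 3 Tgfb2 probe sets, 1 Smad7 probe set and Ctgf lie to the right of their bars and Ltbp1 to the left.

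How large these differences were beside the scatter of the arrays was described by the scaled median absolute deviation of HFD minus Chow over all measured probe sets of like signal, in 10 bins of equal number. It was 0.32 in the dimmest bin, 0.36 in the next and 0.15 in the brightest, and it holds noise and real differences together. Of the 14 member probe sets above the floor on both arrays, 7 differed by more than their bin's scatter, 6 of them higher in HFD. Over all probe sets 34.6% did so. The Tgfb2 probe sets among the 7 share a source sequence and are not independent of each other. Smad7 1423389_at differed by 2.55 times the scatter of its bin, Tgfb2 by 1.86 to 2.29 times, Tgfb1 by 1.88 times, Ltbp1 by 1.81 times and Ctgf by 1.37 times. The receptors, Tgfb3, Smad3 and the second Smad7 probe set differed by less than their scatter.

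Over the 15 member probe sets above the floor the median difference was 0.21, from -0.39 to 0.74, with 11 higher and 4 lower in HFD. The 4 include the Tgfb1 probe set that gives only a bound, and over the 14 above the floor on both arrays the median was 0.23. Over all probe sets above the floor the median was 0.049 and 58.7% were higher. The 6 control probe sets of Gapdh and beta-actin differed by a median of 0.25 (0.14 to 0.28), as much as the member median. Centred on those controls instead of the array median, an alternative chosen after seeing the data that moved the median of all probe sets by -0.24, the member median was -0.031 and 7 of 15 were higher. Tgfb2 (0.31 to 0.50), Tgfb1 (0.16), Smad7 1423389_at (0.23) and Ltbp1 (-0.63) then kept their direction, and Tgfb3 stood at 0.010. No Tgfb2 probe set reached 1.5-fold, and Ltbp1 passed 1.5-fold lower. The signs of Ctgf (-0.031), Tgfbr1 (-0.13) and Tgfbr2 1426397_at (-0.14) turned. That of Tgfbr3 (-0.21) turned too, as it did under 4 other scalings.

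The other genes of the pathway, 102 in lists by role, were described by the brightest probe set of each. Of these, 98 had a probe set and 87 were above the floor. In HFD 58 were higher (66.7%, against 62.2% of all 11360 genes above the floor) and 29 lower. Their median was 0.071, against 0.064 over all genes. Higher by 1.5-fold or more were 7 (8.05%, against 4.23% of all genes), and lower by as much were 4 (4.60%, against 1.42%). Of these 4, Foxh1 was above the floor in Chow only and had to be lower. All 7 higher genes were in the list of target genes.

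Latent complex and activation genes were higher for 8 (53.3%, against 62.2% of all genes) and lower for 7 of the 15 measured, with a median of 0.027. Lower by 1.5-fold or more were 2 (13.3%, against 1.42% of all genes), a small count in a list chosen with earlier results known. The largest negative differences of that list were those of Furin, the protease that cuts the TGF-beta propeptide (268 in HFD and 439 in Chow, 1.55-fold lower), and Itgb8, a subunit of the integrin that activates latent TGF-beta (1184 and 1900, 1.51-fold lower). Each has 1 probe set. Biglycan (Bgn), a proteoglycan that binds TGF-beta, was 1.31-fold higher with all 3 probe sets higher, and Mmp2, a matrix protease, was 1.29-fold higher in both of its probe sets. The relatives of Ltbp1 were lower or not measured: Ltbp4 read 348 in HFD and 413 in Chow (-0.16), Ltbp3 read 1857 and 2181 (-0.15, with 0.0018 in its second probe set), and Ltbp2 was under the floor at 9.62 and 13.9.

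Further receptors and co-receptors had a median of 0.098, with 9 of 12 higher (75%, against 62.2% of all genes) and 0 past 1.5-fold. Without the centring, which added 0.083 to every difference, 6 of 12 were higher. The list median was then 0.014, against -0.034 over all probe sets. Endoglin (Eng), the endothelial co-receptor, read 5981 in HFD and 5331 in Chow, a difference of 0.25, with 0.26 in its second probe set. Itgb1, the integrin beta-1 chain, stood at 0.34, higher in all 3 measured probe sets. Cd109, a co-receptor that restrains TGF-beta signalling, stood at -0.51 at low signals (58.3 and 88.1), and Acvr2b, an activin receptor, at -0.076.

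Smads and their partners had a median of 0.071, with 12 of 15 higher (80%, against 62.2% of all genes). Without the centring 6 of 15 were higher, with a list median of -0.013 against -0.034 over all probe sets. Smad6, the inhibitory Smad of the BMP branch, read 3997 in HFD and 3234 in Chow, a difference of 0.39 (1.31-fold higher) in its 1 probe set. Smad2 stood at 0.18 in its brightest probe set and at -0.21 in its second. Smad4, the common partner, stood at 0.092, -0.039 and -0.052 in its 3 probe sets, so neither gene had a settled direction. Zfyve16, an endosomal adaptor, stood at -0.36 and the coactivator Crebbp at -0.17, lower in all 4 probe sets. Foxh1, a Smad2 partner named here after its value was seen, was above the floor in Chow only and at least 1.52-fold lower in HFD (18.5 against 68.0).

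Inhibitors and Smad regulators were the closest list, from -0.15 to 0.23 with a median of 0.011 over 18 genes. Strap, a receptor-binding inhibitor, stood at 0.23 and Skil, a Smad corepressor, at 0.22, both turning to -0.012 and -0.019 when centred on the Gapdh and beta-actin controls. Tgif1, another corepressor, stood at -0.15 at signals close to the floor (44.7 in HFD and 52.5 in Chow). Vasn, a TGF-beta binding protein, stood at -0.14 with 0.26 in its second probe set.

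Target genes had the highest list median, 0.24 over 27 measured genes, with 19 higher (70.4%, against 62.2% of all genes). Of them 7 were higher by 1.5-fold or more (25.9%, against 4.23% of all genes), in a list chosen with earlier results known. By 2-fold or more 1 was higher, Col4a2 (0.731% of all genes). Col4a2, a basement membrane collagen chain, read 3975 in HFD and 2075 in Chow (2.03-fold higher). The cell cycle inhibitor Cdkn1a read 471 and 254 (1.97-fold higher), with 0.53 in its second probe set. Fn1, fibronectin, read 104 and 70.2 (1.57-fold higher) in the 1 measured probe set of 2. The remaining genes past 1.5-fold were named after their values were seen. They were Col3a1 (1.94-fold), Col4a1 (1.91-fold, with -0.11 in its second probe set), the endothelin gene Edn1 (1.81-fold) and Tagln (1.60-fold). Col3a1 read 167 in HFD and 91.1 in Chow in the 1 measured probe set of 2. Col1a2, named likewise, stood at -0.004, with -0.074 in its second measured probe set, and Col1a1 was under the floor on both arrays.

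Other targets were lower. Postn, periostin, read 1126 in HFD and 1807 in Chow (1.51-fold lower), and Angptl4, a lipase inhibitor, read 1176 and 1722 (-0.47). Tgfbi, a matrix protein named for its induction by TGF-beta, was lower in all 4 probe sets, from -0.28 to -0.15. The target list therefore did not move one way. Its median was -4.1e-05 when centred on the Gapdh and beta-actin controls, where the median of all probe sets was -0.19. Most of these genes also respond to other signals, and macrophage and tubule markers had medians of 0.62 to 1.56 on the same arrays, over genes above the floor on both. Of the smooth muscle markers, Acta2 and Tagln are themselves in the target list, and Myh11, which is not, stood at -0.13. The part of these cells in the target gene values was not tested.

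**Figure D3:**
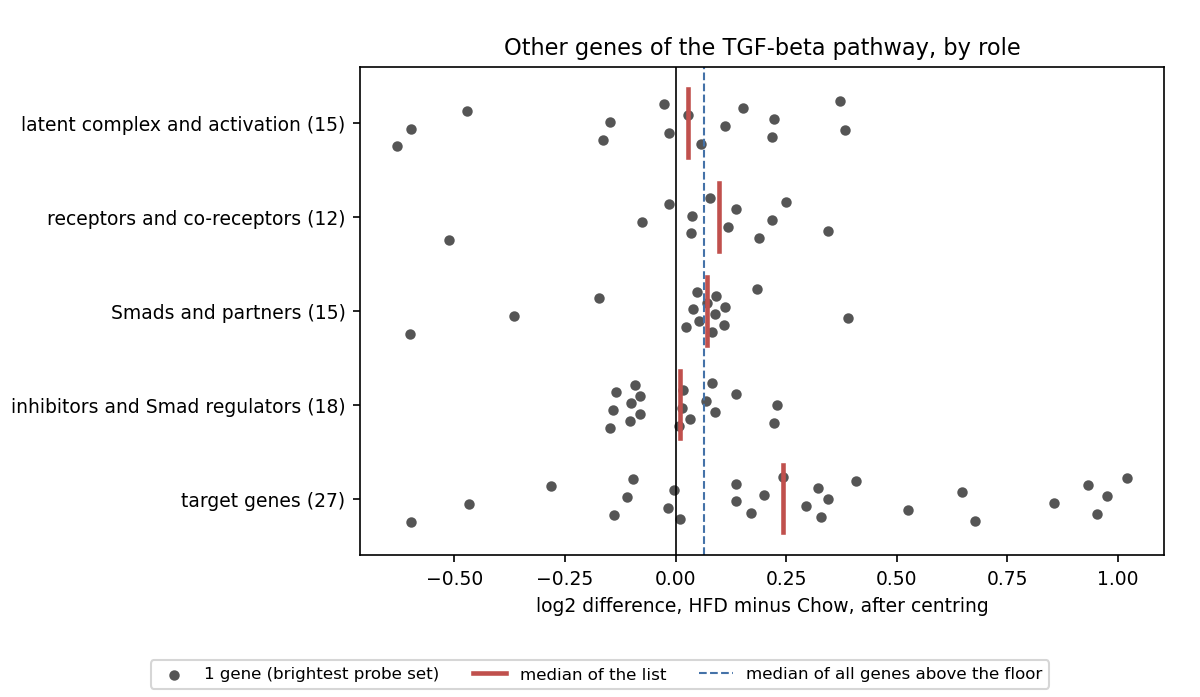
Log2 difference, HFD minus Chow, of each pathway gene above the floor (points, brightest probe set), by role with the number of genes in brackets, the list median (red bar) and the median of all genes (dashed line). The 4 lists other than target genes centre near the dashed line, and the 7 genes beyond 1.5-fold higher are all target genes.

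Most markers of macrophages, platelets and tubules were higher on the HFD array. Among tubule markers Aqp1 (-0.24) and Pvalb (-0.038) were lower and Slc5a2 (0.029) was close to 0. Those 3, Myh11 and Krt8 were named after their values were seen. Podocyte markers were all above the floor (9 of 9 matched, signals of 2042 to 16261) with a median of -0.035, led by Clic5 (-0.25) and Cd2ap (-0.20), and 10 of 10 glomerular endothelial markers were measured, with a median of 0.18 (Plvap at 0.50 and Cdh5 at 0.39). Mesangial markers, of cells that make Tgfb1 and Ctgf, had a median of 0.030 over 6 genes, 3 higher and 3 lower. Mcam (0.40) and Itga8 (0.15) differed most. Macrophage and myeloid markers, of cells that also make Tgfb1, passed 1.5-fold upward for 8 of the 8 above the floor on both arrays (0.77 to 1.96, H2-Eb1 and Cd74 highest). Another 3 (Cd68, C1qa and C1qb) were above it in HFD only and had to be higher. The summed signal of the list was 5574 in HFD and 2242 in Chow. Itgam alone of 12 was under the floor on both arrays.

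Platelet markers, of the cells that store TGF-beta 1, were higher for 3 of 3 measured (Ppbp at 0.61 and Itga2b at 0.46), with a summed signal of 575 in HFD and 440 in Chow, and Gp9 was under the floor. Proximal tubule markers had a median of 0.62 (Slc22a6 at 1.21 and Cyp2e1 at 0.97), with a summed signal of 14379 against 10433. Distal tubule markers had a median of 0.68 (Slc12a3 at 0.83 and Calb1 at 0.82), with 8840 against 6274. Smooth muscle markers had a median of 0.53 over 3 genes, of which Tagln (0.68) and Acta2 (0.53) are also in the target list, and the third, Myh11, stood at -0.13 (196 in HFD and 227 in Chow). Parietal epithelial markers had a median of 0.16 over 3 genes (Cldn1 at 0.45, Pax8 at 0.16 and Krt8 at -0.047), and of 6 lymphocyte markers 2 were measured, Ighm at 0.54 and Cd8a at -0.18. The part of these cells in the Tgfb2 and Smad7 values was not tested.

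**Figure D4:**
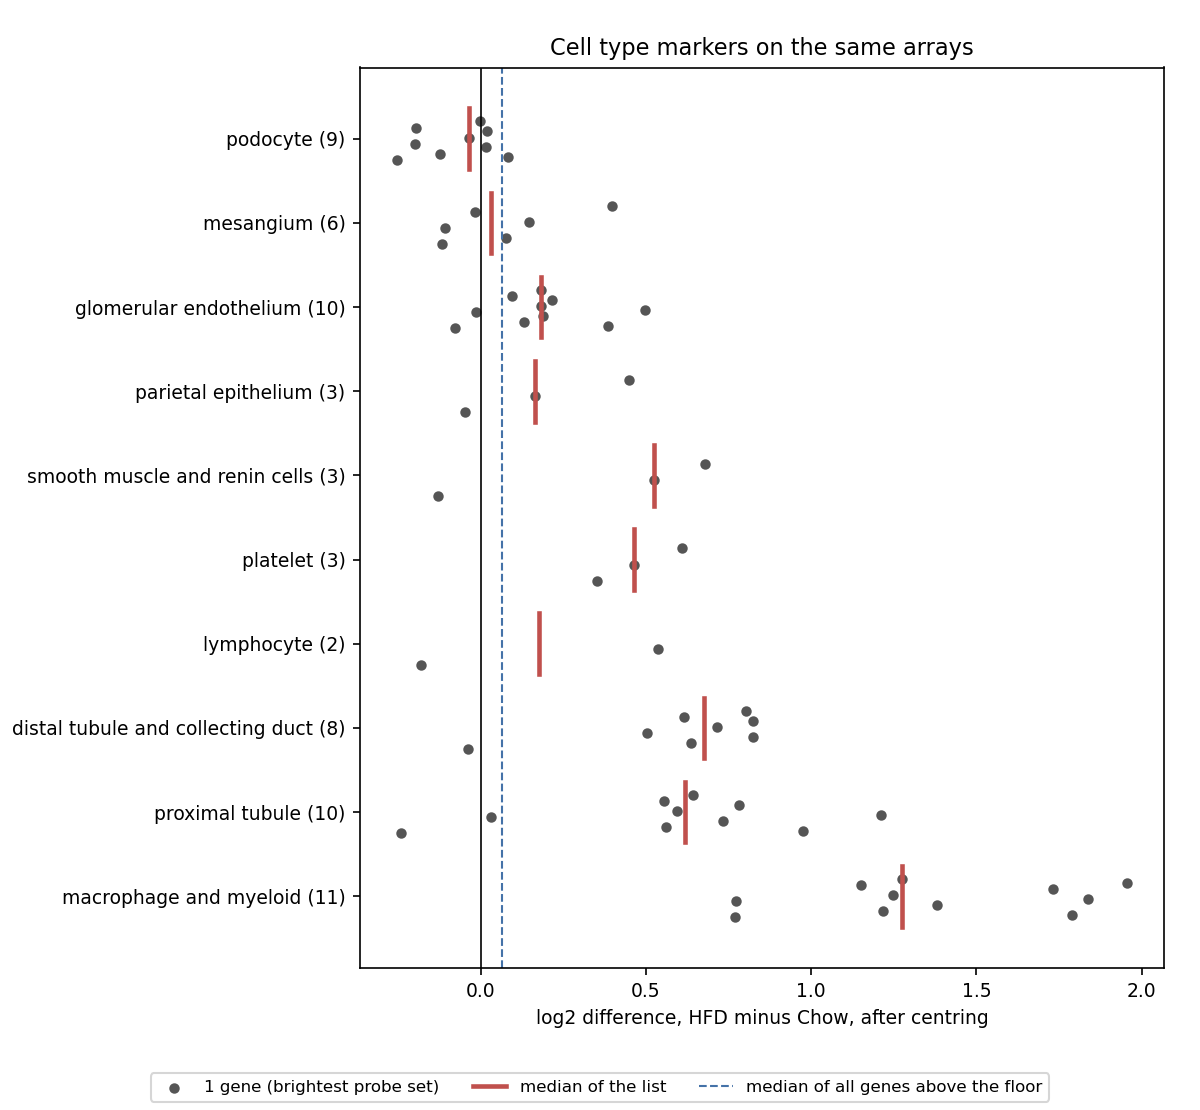
Log2 difference, HFD minus Chow, of cell type markers above the floor (points, brightest probe set), with the number of genes in brackets, list medians (red bars) and the median of all genes (dashed line). Podocyte and mesangial medians lie near 0 and macrophage and tubule medians to the right, with Aqp1 of the proximal and Pvalb of the distal tubule to the left of 0.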

How the data were processed

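Total RNA from isolated glomeruli was amplified by two-cycle labelling and hybridised to Affymetrix Mouse Genome 430 2.0 arrays, per the labels' protocols, 1 array per diet. The table deposited by the authors holds intensities on a linear scale for 45101 probe sets, which were compared in GeneSpring 7.3.1, per the design text. The sources used do not state how probes were summarised or arrays scaled. Values were taken to log2, 64 control probe sets were set aside, and each array was centred on its median. Signals under each array's 50th percentile were raised to that floor first, and a probe set above it on 1 array only gives a bound. Symbols came from the platform annotation of 2016. A gene was represented, in lists, by its brightest probe set (mean of both arrays). Members and lists were chosen with earlier results of these data known. All member probe sets are named. Of each role list the 2 largest differences in each direction are named, as well as Ltbp2, Ltbp3, Ltbp4, Eng, Smad2, Smad4, Tgfbi and Fn1, and of each marker list the 2 largest. The number of arrays limits the precision, and no p-value is given. Calculations used Python 3.11.15, pandas 2.3.3 and statsmodels 0.14.6 and were tested on simulated data. Alternatives were other scalings, floors, thresholds and choices of probe sets.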

Additional observations from a re-analysis of the deposited data

How the results depend on the processing

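No paired analysis was possible because each diet has 1 array. Of the 15 member probe sets above the floor, 11 kept their direction under every scaling and floor tried that left them above the floor, among them the Tgfb1 probe set whose value is only a bound (-0.013, and -0.39 with no floor). The count of those higher in HFD was 11, and 17 of 22 with the floor at the 30th percentile, 6 of 9 at the 70th, and 7 of 15 when centred on Gapdh and beta-actin controls. The count at least 1.5-fold higher was 2, and it was 4 with the lower floor. It was 0 with the higher floor, with the control centring, with 1 probe set per gene and at 2-fold. Of all probe sets 7.93% were 1.5-fold higher with the lower floor, 1.64% with the higher floor and 1.34% with the control centring. The count at least 1.5-fold lower was 0, and it was 1 with the lower floor and 1 with the control centring. The shares of all probe sets lower by as much were 5.67% and 7.72% in those settings. The median of 0.21 was 0.073 with quantile normalization, 0.11 with the higher floor and -0.031 with the control centring. Over all probe sets the median was 0.013, 0.052 and -0.19 in these settings. Of the 11 pathway genes past 1.5-fold, 1 was past 2-fold, and the other alternatives gave 8 to 16. The higher floor leaves fewer probe sets and the lower floor more, 22 against 15. The control centring moved every measured member difference by -0.24. With 1 probe set per gene, Tgfb2 is represented by 1450923_at, which was 1.46-fold higher. The cause of any other change was not tested. Signals near the floor limit Tgfb2, and 1 array per diet limits every value.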
